A study of Mus musculus with 6 samples.

Results

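The insulin-like growth factor (IGF) genes described here are the ligands Igf1 and Igf2, the receptor Igf1r and the binding proteins Igfbp1 to Igfbp7, chosen by gene name, with earlier results of these data known. They are 10 of the 55039 genes listed. All 10 had reads, and 9 passed the filter on low counts, which left 17296 genes tested; Igfbp1 did not pass. RNA of epididymal white adipose tissue (eWAT) was sequenced from male C57BL/6 mice that were 6 to 7 weeks old at the start. The cancer-associated cachexia (CAC) group carried tumors grown from Lewis lung carcinoma (LLC) cells, a mouse lung tumor line. The cells were placed under the skin in PBS, and the control (CONT) group was given PBS. All mice were killed 28 days later, and each group had 3 mice with 1 library per mouse. The tumor was grown from 1 transplanted line under the skin and not in the lung, which limits the group as a model of lung cancer. The p-values below measure the spread between these 3 mice a group.

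IGF-I and IGF-II are secreted peptides related to insulin that signal through the receptor kinase encoded by Igf1r. In blood and tissue most IGF is held by the IGF binding proteins, which carry it, keep it from the receptor, and release it when a protease cuts them. In fat, IGF-I is made by stromal cells and macrophages as well as by adipocytes, and it supports the formation of new adipocytes.

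Igfbp3 and Igfbp4 were the 2 of the 9 tested genes whose CAC libraries all lay above all CONT libraries, at a mean 3.66 and 1.69 times the CONT level by edgeR's fit. Igfbp1 was the only member with more reads in CONT2 and CONT3 than in any CAC library and none in CONT1. The promoters of these 3 genes, picked for these levels in the same data, are shown. Each is the 250 bases before the RefSeq start site on GRCm38.p6, 5′ to 3′ on the gene's strand, and capitals mark a match to a searched motif. Igfbp1 lies at chr11:7197537-7197786 on the plus strand, Igfbp3 at chr11:7213924-7214173 on the minus strand, and Igfbp4 at chr11:99040994-99041243 on the plus strand.
Igfbp1: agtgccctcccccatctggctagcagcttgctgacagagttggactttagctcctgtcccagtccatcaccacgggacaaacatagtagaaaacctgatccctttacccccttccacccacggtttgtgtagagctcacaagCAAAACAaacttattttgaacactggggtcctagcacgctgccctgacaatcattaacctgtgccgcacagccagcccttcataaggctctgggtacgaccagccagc
Igfbp3: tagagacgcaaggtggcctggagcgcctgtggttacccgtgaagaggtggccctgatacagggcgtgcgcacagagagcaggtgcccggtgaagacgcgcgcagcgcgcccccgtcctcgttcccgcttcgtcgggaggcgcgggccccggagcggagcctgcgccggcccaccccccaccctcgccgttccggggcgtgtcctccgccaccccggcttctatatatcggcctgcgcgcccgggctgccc
Igfbp4: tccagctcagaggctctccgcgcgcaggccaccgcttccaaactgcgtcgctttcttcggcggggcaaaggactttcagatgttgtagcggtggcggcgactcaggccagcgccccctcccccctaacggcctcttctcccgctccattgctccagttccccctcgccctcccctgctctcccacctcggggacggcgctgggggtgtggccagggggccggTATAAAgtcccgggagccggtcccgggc
The capitals in Igfbp1 mark CAAAACA, a core of the insulin response element that FOXO factors bind, 108 bases before the start site. In Igfbp4 they mark a TATA box, TATAAA, 28 bases before the start site. The Igfbp3 window held no match and had the highest GC content of the 3, with 73.2% against 69.2% for Igfbp4 and 53.2% for Igfbp1. Both strands were searched in the 14 RefSeq promoters of the 10 genes and in all 32851 promoters. CAAAACA was in 5.56% of all promoters and in 1 of the 14. TATAAA was in 12.4% of all and in 2 of the 14, the other in Igfbp6. The SP1 core GGGCGG was in 32.7% of all and in 5 of the 14, in windows of Igf2, Igf1r, Igfbp2 and Igfbp7. The FOXO motif GTAAACA, found in 3.17% of all, was in none of the 14. The palindromic glucocorticoid response element was in 3 of the 32851 promoters (0.00913%) and in none of the 14. A match is only a run of letters in these windows.

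The libraries held 15713794 to 25926425 gene counts, and 1 CPM (the count scaled to a common library size, adjusted by trimmed mean of M-values, TMM) stood for 11.2 to 26.5 reads. CONT1 stood apart. Mitochondrial genes took 30.2% of its counts against 3.89% to 5.04% in the other 5, and against the mean of CONT2 and CONT3 its genes under 2000 bases had a median log2 ratio of 0.69 and those over 8000 bases one of -0.50. All 8 adipocyte markers were detected, and their summed level was 15981 to 35760 CPM in CONT and 13542 to 32974 CPM in CAC. Among them the leptin gene Lep, 409 CPM or more in CONT and 512 CPM in CAC1, was almost absent from CAC2 (4 CPM) and CAC3 (0.415 CPM). Markers of neighboring organs were uneven: epididymis markers summed to 8793 CPM in CONT3 and 202 CPM in CONT1 but to under 3 CPM elsewhere, with 2 of the 5 at 0 in every CAC library, and testis markers to 618 CPM in CONT2 and 918 CPM in CAC3 but to under 10 CPM elsewhere.

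On the scale of FPKM, the count scaled to gene length and to a normalized library size, which allows levels of different genes to be set side by side, Igfbp7 was the most abundant of the 10 transcripts in CONT, at 350 ± 5.41 FPKM (SD, n = 3). Igfbp4 (117 ± 15.5) and Igfbp6 (88.4 ± 24.2) came next and overlapped with each other, followed by Igfbp5 (30.2 ± 7.11) and Igf1 (27.1 ± 13.8), which also overlapped. Igfbp3 (9.59 ± 3.10) and Igfbp2 (5.94 ± 0.504) were each apart from their neighbors in that order. Igf1r (2.73 ± 1.63) overlapped with Igfbp1 (0.742 ± 0.757), and Igfbp1 with Igf2 (0.0567 ± 0.0499). In CAC the order was the same but for Igfbp3, which moved above Igfbp5 and Igf1. There Igfbp7 (266 ± 98.0 FPKM) overlapped with Igfbp4 (200 ± 23.0). Igfbp6 (67.3 ± 14.9), Igfbp3 (35.4 ± 19.3), Igfbp5 (24.6 ± 12.5) and Igf1 (18.2 ± 3.15) formed a chain in which each overlapped with the next. Igfbp2 (4.76 ± 5.88) overlapped with Igf1r (2.41 ± 0.535), and Igfbp1 (0.128 ± 0.0752) with Igf2 (0.119 ± 0.0749). By group means the binding proteins Igfbp7, Igfbp4 and Igfbp6 were the leading 3 transcripts in both groups, and Igf2 and Igfbp1, which overlapped, were the lowest.

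**Figure D1:**
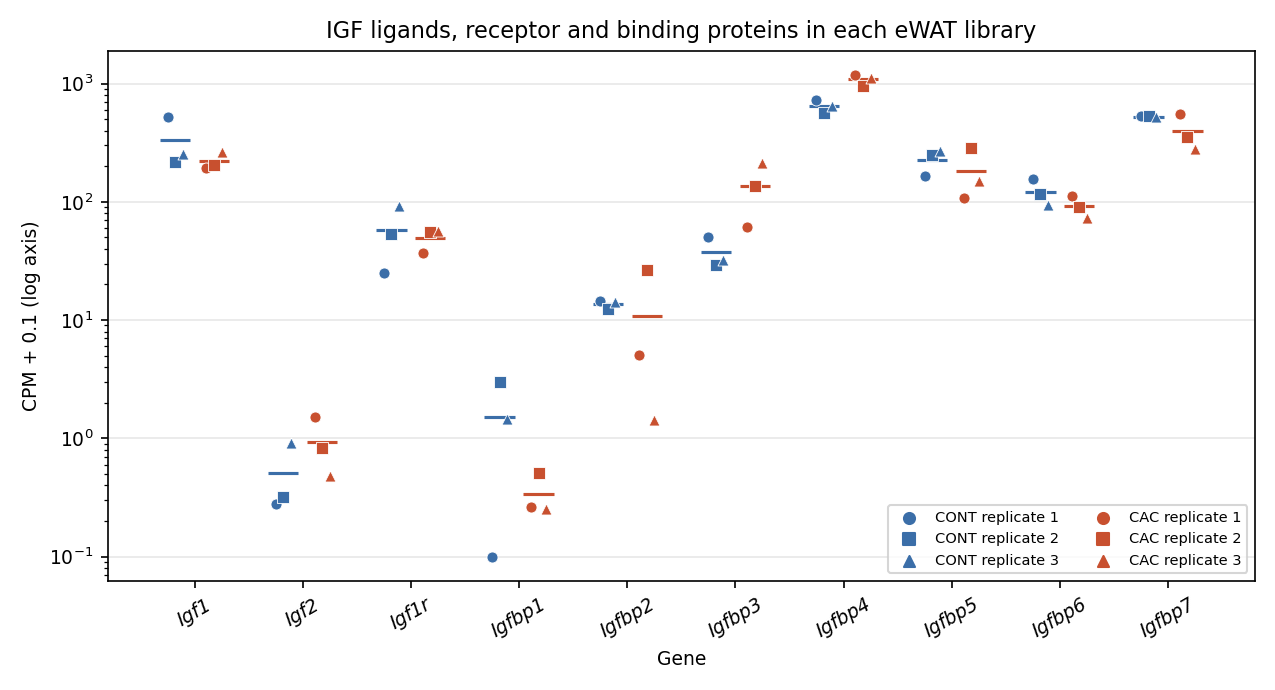
Level of each of the 10 IGF genes in the 6 libraries. The vertical log axis is CPM, on the TMM-adjusted library size, plus 0.1, points are libraries with a shape for each replicate number, and bars are means of the 3 libraries of a group. Only for Igfbp3 (29.0 to 50.6 CPM in CONT, 61.4 to 211 in CAC) and Igfbp4 (561 to 720 in CONT, 956 to 1185 in CAC) do all CAC points lie above all CONT points.

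Of the 9 tested genes, 0 passed edgeR's quasi-likelihood test at an adjusted p under 0.05, as did 0 of all 17296 genes (0%). At an unadjusted p under 0.05, 2 of the 9 were higher in CAC, Igfbp3 and Igfbp4, and 0 were lower, beside 13.3% of all genes tested in either direction, 6.31% higher and 6.95% lower. For both genes the groups of libraries did not overlap, which held for 22.5% of all genes, 11.8% higher and 10.7% lower in CAC. In all, 3 of the 9 had a positive and 6 a negative log2 fold change, with a median of -0.32 against -0.06 over all genes tested. The exact permutation test cannot give less than 0.1 with 3 libraries against 3.

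Igfbp3, the main carrier of IGF in blood, showed the largest difference of the 9. The gene lies at chr11:7206086-7213923 on the minus strand, and its level was 50.6, 29.0 and 32.1 CPM in CONT1 to CONT3 and 61.4, 136 and 211 CPM in CAC1 to CAC3. The 3 CAC libraries differed among themselves by more than the 3 CONT libraries did, with CAC1 close to CONT1 and CAC3 the highest. The mean was 37.3 ± 11.7 CPM in CONT and 136 ± 74.6 CPM in CAC (SD, n = 3 each). By edgeR's quasi-likelihood test the log2 fold change was 1.87 (SE 0.47, 95% interval 0.73 to 3.01), a 3.66-fold higher level, with an unadjusted p of 0.00633 and a Benjamini-Hochberg adjusted p of 0.251. The two-sided exact permutation test gave 0.1. With DESeq2 the adjusted p was 0.00796, where 5.62% of 17160 genes passed and 3.22% were higher, and with limma's voom and sample quality weights it was 0.0302, where 5.51% of genes passed and 2.78% were higher. DESeq2's adjusted p was above 0.05 without CONT2, CONT3, CAC2 or CAC3, at 0.0631 to 0.0960. In bulk tissue a change in the share of a cell type and a change in RNA per cell cannot be told apart. Endothelial cells are a known source of binding proteins, and their 6 markers summed to 1797, 1177 and 1248 CPM in CONT1 to CONT3 and 1715, 1664 and 1747 CPM in CAC. CONT1 was above all CAC libraries and CONT2 and CONT3 were below them, with 0 of 6 at an unadjusted p under 0.05 and a median log2 fold change of 0.09 over all libraries. Their part in the result was not tested.

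Igfbp4, which binds IGF and holds it from the receptor until the protease PAPP-A cuts it, was the other gene with separate groups. It lies at chr11:99041244-99054392 on the plus strand. Its level was 720, 561 and 644 CPM in CONT1 to CONT3 and 1185, 956 and 1107 CPM in CAC1 to CAC3. The lowest CAC library was above the highest CONT library, and the spread within each group was small, with means of 642 ± 79.6 and 1083 ± 116 CPM. The log2 fold change was 0.75 (SE 0.25, 95% interval 0.16 to 1.35), 1.69-fold, with an unadjusted p of 0.0205 and an adjusted p of 0.305 by edgeR's quasi-likelihood test, and the two-sided exact permutation test gave 0.1. DESeq2 gave an adjusted p of 0.00979, or 0.0670 without CAC3, and voom one of 0.0513. The unadjusted edgeR p was 0.0819 without CONT2, 0.0535 without CONT3 and 0.0526 without CAC3.

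The most abundant binding protein gene, Igfbp7, encodes a secreted protein that binds IGF weakly and is rich in vessel walls. It lies at chr5:77349240-77408041 on the minus strand. Its level was 528, 532 and 517 CPM in CONT and 552, 351 and 278 CPM in CAC1 to CAC3. The CONT libraries were nearly equal, CAC1 was above all of them, and CAC2 and CAC3 were below. The log2 fold change was -0.42 (SE 0.30, 95% interval -1.15 to 0.31), and edgeR's quasi-likelihood test gave an adjusted p of 0.571. Without CAC1 it was -0.69 with an adjusted p of 0.382 by edgeR, where DESeq2 gave -0.71 with an adjusted p of 0.00932. Without CAC3 it was -0.21 by edgeR, and DESeq2 gave -0.19 with an adjusted p of 0.807. Polr2b overlaps Igfbp7 on the opposite strand and had 8422 reads against 59000, and reads shared by the genes cannot be told apart where strand was not used.

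Igfbp6, which prefers IGF-II over IGF-I, was measured at 157, 116 and 93.2 CPM in CONT and 112, 90.5 and 72.5 CPM in CAC. The groups overlapped, with CONT1 the highest and CAC3 the lowest, and the log2 fold change was -0.41 (SE 0.27, 95% interval -1.06 to 0.23, edgeR's quasi-likelihood adjusted p = 0.526). By the same test it was -0.17 without CONT1 and -0.56 without CONT3. Igfbp5, a binding protein that sticks to extracellular matrix, was at 164, 247 and 267 CPM in CONT and 107, 286 and 151 CPM in CAC. Its highest library was CAC2 and its lowest CAC1, and the log2 fold change was -0.32 (SE 0.41, 95% interval -1.29 to 0.65, adjusted p = 0.763 by the same edgeR test). It was 0.01 without CAC1 and -0.80 without CAC2. Beside these, the 9 stromal and progenitor markers summed to 2289 to 2679 CPM in CONT and 1620 to 2198 CPM in CAC. Of the 9, 4 were lower at an unadjusted p under 0.05, beside 6.95% of all genes, and the median log2 fold change was -0.51. The part of stromal cells in either result was not tested.

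Igfbp2, a binding protein made by adipocytes and their precursors, was even in CONT at 14.4, 12.4 and 14 CPM and uneven in CAC at 4.97, 26.2 and 1.32 CPM. CAC2 was above every CONT library, while CAC1 and CAC3 were below, so that the group means of 13.6 ± 1.06 and 10.8 ± 13.4 CPM hide a wide spread. The log2 fold change was -0.33 (SE 0.94, 95% interval -2.58 to 1.91), with an adjusted p of 0.907 by edgeR's quasi-likelihood test. It was -2.10 without CAC2 by the same test, 0.06 without CAC1 and 0.20 without CAC3. Without CAC2 the adjusted p was 0.684 by edgeR and 0.0429 by DESeq2. Igfbp2 and Igfbp5 lie tail to tail on chromosome 1, 5457 bases apart, and in both of them CAC2 was the highest of the 6 libraries. The summed markers of mural cells and of the mesothelium were also highest in CAC2, at 1310 CPM against 680 to 936 and at 201 CPM against 62.8 to 194. Other genes within each list were highest in a CONT library instead, and the part of these cells was not tested.

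Igfbp1, a binding protein known mainly from liver, where insulin lowers and glucocorticoids raise it, was near the limit of detection. It lies at chr11:7197782-7202546 on the plus strand, tail to tail with Igfbp3 and 3539 bases from it. It had 0, 66 and 30 reads in CONT1 to CONT3 and 4, 10 and 4 reads in CAC1 to CAC3, that is 0, 2.89 and 1.36 CPM and 0.164, 0.404 and 0.151 CPM. CONT2 and CONT3 were above every CAC library, and the 0 reads of CONT1 allow up to 0.268 CPM, which is above CAC1 and CAC3, so that CONT1 cannot be placed against them. With no filter on counts the log2 fold change was -2.45, with an unadjusted p of 0.101 by edgeR. Without CONT1 it was -3.10 with an adjusted p of 0.233 by edgeR's quasi-likelihood test, and DESeq2 gave an adjusted p of 0.00845. Without CONT2 it was -1.55 with an adjusted p of 0.668 by edgeR, and DESeq2 gave 0.453 to 0.735 when any library other than CONT1 was left out. The summed hepatocyte markers were highest in CAC3 (79.8 CPM against 2.10 to 31.6 in the other 5), in which Igfbp1 was among its lowest. The part of liver RNA was not tested. The neighbors Igfbp1 and Igfbp3 thus lay on opposite sides in CONT2 and CONT3 against CAC.

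**Figure D2:**
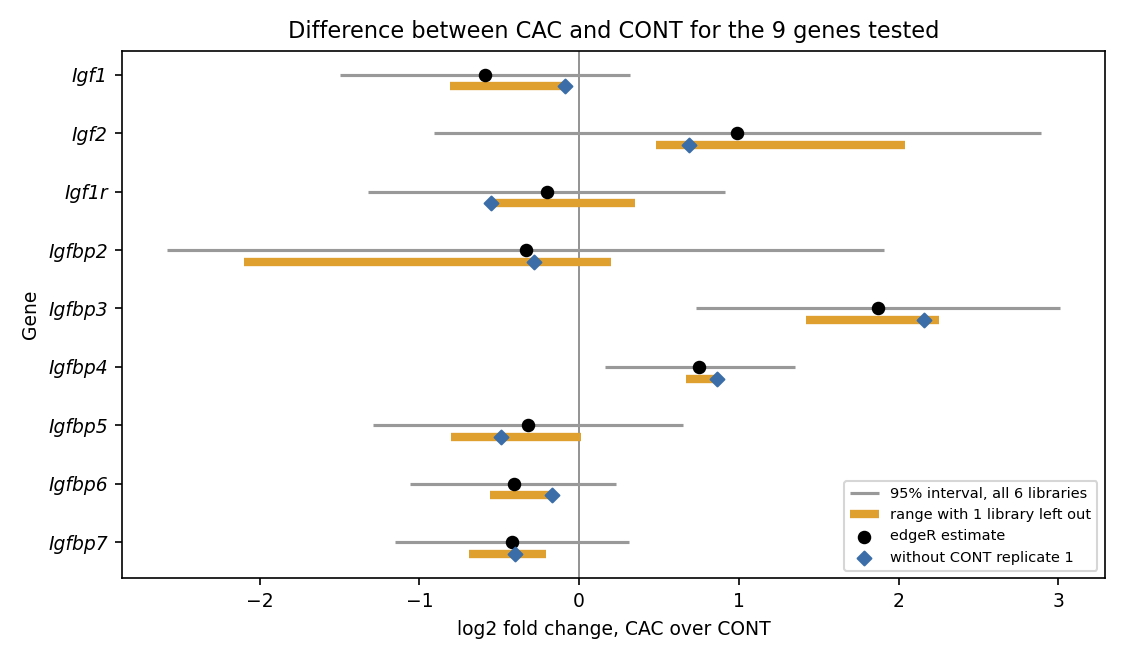
Log2 fold change of CAC over CONT for the tested IGF genes by edgeR's quasi-likelihood test. Black points and gray bars are estimates with their 95% intervals from all 6 libraries, orange bars are the range with 1 library left out, and blue diamonds are estimates without CONT replicate 1. The intervals of Igfbp3 (0.73 to 3.01) and Igfbp4 (0.16 to 1.35) lie above 0, and those of the other 7 genes include 0.

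Of the ligands, Igf1 was the abundant one. The gene lies at chr10:87858265-87937042 on the plus strand, and its level was 524, 219 and 256 CPM in CONT1 to CONT3 and 192, 206 and 265 CPM in CAC1 to CAC3. Only CONT1 stood out, and the other 5 libraries lay between 192 and 265 CPM with the groups overlapping. The log2 fold change was -0.59 (SE 0.38, 95% interval -1.50 to 0.32, edgeR's quasi-likelihood adjusted p = 0.522), and it was -0.09 without CONT1. In CONT1 the log2 ratio of Igf1 to the mean of CONT2 and CONT3 was 1.14, while genes over 8000 bases, among which Igf1 falls with 9904 bases, had a median of -0.50. The summed level of the 6 macrophage markers was lowest in CONT1, at 611 CPM against 695 to 1681 CPM in the other 5. An antisense gene, Igf1os, overlaps Igf1 and had 278 reads against 33337.

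The second ligand, Igf2, is expressed from the paternal allele and is abundant in the fetus. It lies at chr7:142650766-142666816 on the minus strand, and 2, 5 and 18 reads were counted in CONT and 34, 18 and 10 in CAC. At 0.178, 0.219 and 0.814 CPM in CONT and 1.40, 0.727 and 0.378 CPM in CAC, the groups overlapped. The log2 fold change of 0.99 (SE 0.79, 95% interval -0.91 to 2.89, edgeR's quasi-likelihood adjusted p = 0.605) was 2.04 without CONT3, 0.48 without CAC1 and 0.69 to 1.35 without any other library. Antisense Igf2os had 24 reads against 87.

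The receptor Igf1r lies at chr7:67952827-68233668 on the plus strand and was measured at 24.7, 53.8 and 92.8 CPM in CONT and 36.6, 55.5 and 56.9 CPM in CAC. CONT held both the lowest and the highest library, so the CAC range lay inside the CONT range, with means of 57.1 ± 34.2 and 49.6 ± 11.3 CPM. The log2 fold change was -0.20 (SE 0.47, 95% interval -1.32 to 0.91, edgeR's quasi-likelihood adjusted p = 0.882), and it was 0.35 without CONT3. Igf1r is the longest of the 10 transcripts with 16791 bases, and its log2 ratio in CONT1 to the mean of CONT2 and CONT3 was -1.57.

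The mixture of binding protein transcripts was described by the share of each in the summed FPKM of Igfbp1 to Igfbp7, with no test. The sum itself was 601 ± 36.2 FPKM in CONT and 599 ± 101 FPKM in CAC. Igfbp7 made up 55.1%, 60.3% and 59.4% of the sum in CONT and 52.7%, 41.8% and 36.0% in CAC, and the groups did not overlap. The share of Igfbp4 was 20.6%, 17.4% and 20.2% in CONT and 31.0%, 31.2% and 39.2% in CAC, again with no overlap. Igfbp3 held 2.04%, 1.27% and 1.42% in CONT and 2.27%, 6.27% and 10.5% in CAC. The mixture in CAC thus held less Igfbp7 (43.5% ± 8.49 against 58.2% ± 2.77) and more Igfbp4 (33.8% ± 4.68 against 19.4% ± 1.74) and Igfbp3 (6.36% ± 4.13 against 1.58% ± 0.408). The shares add to a fixed total, so a higher share of one lowers the others. Igfbp6 (11.6% to 17.9% in CONT, 10.2% to 11.7% in CAC), Igfbp5, Igfbp2 and Igfbp1 overlapped between the groups.

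**Figure D3:**
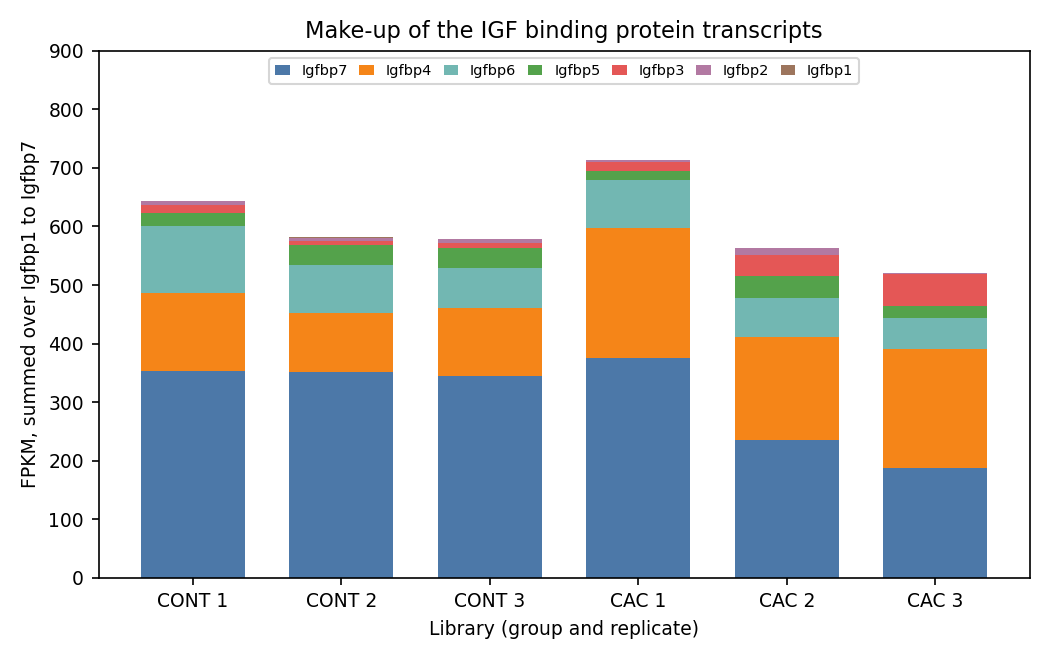
Make-up of the binding protein transcripts in each of the 6 libraries, as FPKM stacked over Igfbp1 to Igfbp7. Bars are libraries and colors are genes; Igfbp4 takes 17.4% to 20.6% of the CONT bars and 31.0% to 39.2% of the CAC bars.

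Other genes of the pathway came from 5 lists of 52 genes, also written with earlier results of these data known, of which 46 were tested. By edgeR's quasi-likelihood test 0 passed at an adjusted p under 0.05, and at an unadjusted p under 0.05, 13 were higher and 3 lower in CAC, beside 6.31% and 6.95% of all genes; the median log2 fold change was 0.17. DESeq2 gave an adjusted p for 47 of the 52 and called 10, 8 higher and 2 lower, beside 5.62% of all genes. All 10 were among the 16, which came from the same counts. CONT1 was the lowest of the 6 libraries for 9 of the 13 higher genes. In the edgeR fit that left out CONT1, the unadjusted p was under 0.05 for 15 of 48 pathway genes, beside 15.6% of all genes, and 13 of these were among the 16. Pappa, Socs3 and Cyr61 were no longer among them.

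Of the 12 genes that govern IGF availability, 4 were higher at an unadjusted p under 0.05 and 0 lower, beside 6.31% and 6.95% of all genes. The median log2 fold change of the 12 was 0.16. The protease PAPP-A, encoded by Pappa, cuts IGFBP-4 and frees its IGF, and Pappa was at 1.78, 3.46 and 2.44 CPM in CONT and 4.23, 5.81 and 22.7 CPM in CAC. CAC3 decided the size of its log2 fold change, 2.08 (SE 0.72) with all libraries and 0.97 without CAC3. Stc1, encoding stanniocalcin-1, an inhibitor of PAPP-A, was at 2.05, 2.50 and 2.98 CPM in CONT and 10.5, 5.29 and 12.3 CPM in CAC, with a log2 fold change of 1.89 (SE 0.43). The related inhibitor gene Stc2 was at 31.5, 33.6 and 37.6 CPM in CONT and 31.9, 19.1 and 8.76 CPM in CAC, with overlapping groups and a log2 fold change of -0.78 (SE 0.44, edgeR's quasi-likelihood adjusted p = 0.474). Pappa2, which encodes a relative of PAPP-A, had a log2 fold change of -0.79 (SE 0.56, edgeR's quasi-likelihood adjusted p = 0.560), also with overlapping groups. The estimates for genes of this step thus differed in sign. The secreted protease gene Adamts1 had a log2 fold change of 1.07 (SE 0.33), or 0.67 without CAC1, and that of Lrp1, a large endocytic receptor, was 1.46 (SE 0.54). The unadjusted edgeR p of Lrp1 was 0.0518 without CONT2, 0.0915 without CAC2 and 0.0715 without CAC3, and that of Pappa was 0.0753 to 0.0998 without CONT1, CONT3 or CAC3. The adjusted p of these 4 was 0.228 to 0.338 by edgeR. Igf2r, the receptor that clears IGF-II, and Igfals, the acid-labile subunit of the IGF complex in blood, had log2 fold changes of 0.19 and 0.15 with an unadjusted p of at least 0.05.

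Among 14 tested genes of receptor signaling, 6 were higher and 1 lower at an unadjusted p under 0.05, beside 6.31% and 6.95% of all genes. The median log2 fold change of the 14 was 0.48. The insulin receptor gene Insr, sister of Igf1r, was at 77.0, 174 and 194 CPM in CONT and 302, 346 and 412 CPM in CAC, with a log2 fold change of 1.25 (SE 0.38). Insr thus lay apart between the groups where Igf1r overlapped. The log2 fold changes of the adaptors that dock to both receptors were 1.63 (SE 0.57) for Irs1 and 1.91 (SE 0.60) for Irs2. Their unadjusted edgeR p was above 0.05 without CAC2 (0.0812 for Irs1 and 0.0634 for Irs2), as did that of Irs1 without CAC3 (0.0591), and DESeq2's adjusted p was 0.0613 for Irs1 and 0.0270 for Irs2. Grb10, an adaptor that restrains both receptors, was at 67.9, 59.1 and 69.2 CPM in CONT and 132, 118 and 104 CPM in CAC, with a log2 fold change of 0.85 (SE 0.18). Its relative Grb14 was lower, at 16.2, 17.1 and 11.1 CPM in CONT and 2.96, 2.30 and 1.40 CPM in CAC, a log2 fold change of -2.74 (SE 0.40). Foxo1 (0.90, SE 0.24) and Foxo3 (0.97, SE 0.27), transcription factors that AKT keeps out of the nucleus, completed the 7. With an offset for gene length the log2 fold change of Foxo1 was 0.74, with an unadjusted edgeR p of 0.0641. By edgeR's quasi-likelihood test the adjusted p was 0.177 for Grb14 and 0.226 for Grb10, the lowest of the pathway genes, and up to 0.322 for the others.

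Growth hormone is the main inducer of Igf1, and its receptor gene Ghr had a log2 fold change of 0.23 with an unadjusted p of at least 0.05. Of the 7 genes of that axis, 3 feedback inhibitors of cytokine and growth hormone signaling were higher at an unadjusted p under 0.05 and 0 genes were lower. The shares of all genes were 6.31% higher and 6.95% lower, and the median log2 fold change of the 7 was 0.23. Socs2 was at 24.8, 14.6 and 20.3 CPM in CONT and 33.6, 48.5 and 195 CPM in CAC, and its log2 fold change was 2.22 (SE 0.69), or 1.06 without CAC3, with an unadjusted edgeR p of 0.0503 without CONT2 and 0.0531 without CONT3. Cish was at 2.23, 15.4 and 9.49 CPM in CONT and 24.2, 45.8 and 87.3 CPM in CAC, a log2 fold change of 2.52 (SE 0.75), or 3.14 without CONT2 and 1.95 without CAC3. Socs3 overlapped between the groups, with 14.6, 20.6 and 15.7 CPM in CONT and 20.2, 28.5 and 72.5 CPM in CAC, and its log2 fold change of 1.25 (SE 0.49) was 0.53 without CAC3, where its unadjusted edgeR p was 0.114, and the p was 0.0551 to 0.120 without any 1 of the CONT libraries. Their adjusted p was 0.283 to 0.356 by edgeR's quasi-likelihood test. CAC3 was the highest library of all 3 genes, as it was of Igfbp3, Pappa and Stc1.

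Of the 7 genes of the Igf2 locus and its regulators, 4 were tested and 0 had an unadjusted p under 0.05, where the median log2 fold change was -0.38. The smallest p was that of Plagl1, an imprinted zinc finger gene, at 46.7, 60.9 and 69.3 CPM in CONT and 49.4, 24.9 and 9.82 CPM in CAC, with overlapping groups and a log2 fold change of -1.07 (SE 0.54, unadjusted p = 0.0911 by edgeR). The median was -0.37 among 9 tested genes whose proteins carry a domain like that of the IGFBPs. Beside 6.31% and 6.95% of all genes, 0 of the 9 were higher and 2 lower at an unadjusted p under 0.05. These were the matricellular genes Wisp2, at 10.3, 12.0 and 4.61 CPM in CONT and 1.44, 3.75 and 2 CPM in CAC, and Cyr61, at 85.0, 49.1 and 30.6 CPM in CONT and 36.5, 15.8 and 9.78 CPM in CAC. The groups were separate for Wisp2 (-1.91, SE 0.55) and overlapped for Cyr61 (-1.40, SE 0.58), with adjusted p of 0.275 and 0.371 by edgeR's quasi-likelihood test. For Cyr61 the value was -0.92 without CONT1 and ranged to -2.07 without another library, and its unadjusted edgeR p was 0.0704 to 0.193 without CONT1, CONT2, CAC2 or CAC3 and 0.0563 with the offset for gene length.

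**Figure D4:**
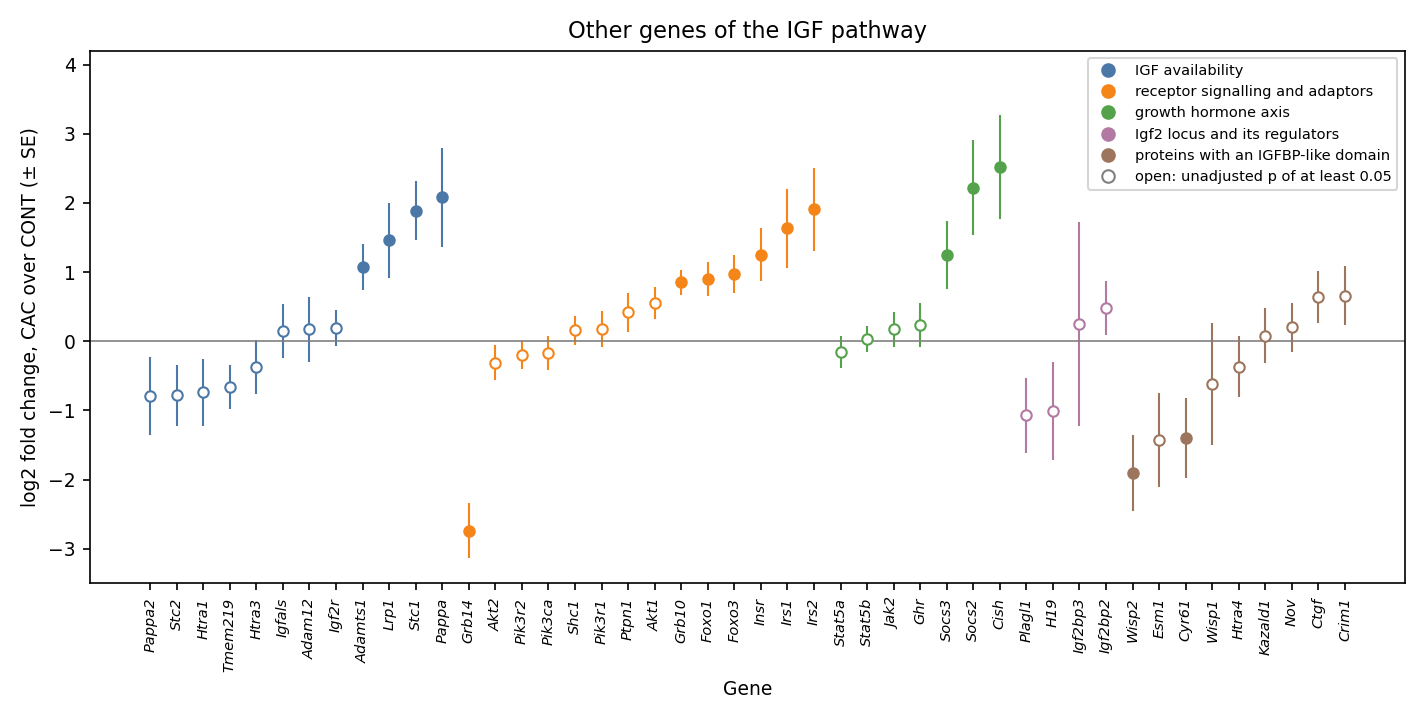
Log2 fold change of CAC over CONT for the tested genes of the 5 pathway lists by edgeR, sorted within each list, with bars for the SE. Filled points have an unadjusted p under 0.05; they are 13 above 0, up to Cish at 2.52, and 3 below 0, down to Grb14 at -2.74.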

How the data were processed

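The authors sequenced poly(A) RNA of eWAT from 3 CAC and 3 CONT mice, aligned the reads with HISAT2 2.0.5 to GRCm38 and counted them per gene with featureCounts 1.5.0-p3, per the submitters' processing notes. The strand setting of the counting is not given in the sources used here. The deposited counts are whole reads per gene without normalization, and the deposited FPKM values are the same counts scaled by the authors to gene length and to a library size that was 1.22 to 1.25 times the TMM-adjusted one in each library, not to the total count. CPM is edgeR's scaling of the counts to the TMM-adjusted library size. Groups and replicate numbers were taken from the sample labels, and 0 sample columns were left unmapped. The study's authors used DESeq2.

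The counts were tested in R 4.3.3 with edgeR 4.0.16 (TMM, filter on low counts by group, robust quasi-likelihood, Benjamini-Hochberg adjustment over 17296 genes), with condition as the only term. Alternatives used DESeq2 1.42.0 and limma 3.58.1 on counts or on log2(FPKM + 1) and log2(FPKM + 0.1), which understates the change of low genes. Intervals are 95% intervals of the edgeR fit, and the limit for 0 reads is 3 counts and covers counting error only. Total counts limit Igf2 and Igfbp1 most. Promoter sequences came from RefSeq on GRCm38.p6, which matched 10 of the 10 genes. The genes named were all 10 IGF genes, genes of 5 pathway lists with an unadjusted p under 0.05 or the smallest p of a list with none, a few further list genes such as Igf2r, Igfals, Stc2, Pappa2, Ghr, H19, Lep and Igf2bp3, which were named after their values were seen, and the 3 genes nearest to Igf1. The 11 marker lists were given as sums. Members and lists were chosen with earlier results of these data known.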

Additional observations from a re-analysis of the deposited data

How the results depend on the processing

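By edgeR 0 of the 9 genes passed at an adjusted p of 0.05 under every normalization and filter tried and without any 1 library, while DESeq2 called 2 (Igfbp3 and Igfbp4) and voom called 1 (Igfbp3). Counted with Igfbp1, the range for DESeq2 without 1 library was 0 (without CAC3, 3.53% of all genes called) to 3 (without CONT1 or CAC1, 11% and 7.90%). Igfbp1, which is not among the 9, was 1 of the 3 without CONT1. At an unadjusted p under 0.05 the count was 2, with a range of 1 (without CONT2, CONT3 or CAC3, 8.32% to 9.30% of all genes) to 4 without 1 library, the highest by DESeq2 without CAC2 (7.94% of all genes). The count of the 9 genes whose groups do not overlap was 2, with a range of 2 to 4 without 1 library, the highest without CONT3 or CAC2, where 28.5% and 26.6% of all genes did not overlap, beside 22.5% with all libraries. Of the pathway genes, 11 to 22 had an unadjusted p under 0.05 over all alternatives, beside 16, the lowest by edgeR without CAC3 (8.32% of all genes) and the highest by DESeq2 without CAC1 (10.8%). Igfbp3 and Igfbp4 were higher in CAC under all 25 alternatives, with log2 fold changes of 1.42 to 2.25 and 0.67 to 0.90. The direction reversed for Igf1r without CONT3 (0.35, DESeq2 0.39) and without CAC1 (0.03, DESeq2 0.01), for Igfbp2 without CAC1 (0.06, DESeq2 0.05) and without CAC3 (0.20, DESeq2 0.23), and for Igfbp5 without CAC1 (0.01), and the cause was not tested. Without 1 library the edgeR log2 fold change ranged from -0.55 to 0.35 for Igf1r, from -2.10 to 0.20 for Igfbp2 and from -0.80 to 0.01 for Igfbp5. Igf1, Igf2, Igfbp1, Igfbp6 and Igfbp7 kept their direction wherever they were tested. Igf2 and Igfbp1 gave no value with at least 10 counts in every library or with the FPKM filter, and Igfbp1 none under edgeR's filter with all 6 libraries. The median of all genes shifted by under 0.1 with the scaling. An offset for gene length, chosen after seeing the data, called 2 genes at an unadjusted p under 0.05, beside 14% of all genes. It gave Igf1 -0.84 and Igfbp6 -0.25.

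Deviations of same-numbered libraries from their group means had correlations of -0.03, 0.06 and -0.15 over 5779 genes. These values show no pairing by replicate number but cannot exclude it. With the replicate number as a block, 1 gene (Igfbp3, unadjusted p = 0.0269 by edgeR) in place of 2 had an unadjusted p under 0.05, with Igfbp4 at 0.0503. In that fit 0 had an adjusted p under 0.05, and 15 pathway genes had an unadjusted p under 0.05, beside 11.5% of all genes. Depth limits Igf2 and Igfbp1 most, which had at most 34 and 66 reads in a library.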

Other observations

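The genes whose level over the 6 libraries was most like that of Igf1 were Sec61g, a subunit of the translocation channel of the endoplasmic reticulum, Fam58b and Atp6v1g1, a subunit of the proton pump of lysosomes. Likeness was the root mean square distance on log2 CPM after each gene was centered on its own mean, and it was 0.035, 0.058 and 0.060, against a median of 0.679 over all genes. Sec61g was at 72.3, 30.3 and 36.6 CPM in CONT1 to CONT3 and 27.9, 29.8 and 39.1 CPM in CAC1 to CAC3. As for Igf1, CONT1 alone stood apart from the other 5 libraries in all 3 genes.

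Igf2bp3, which encodes an RNA-binding protein named for Igf2 mRNA, was at 7.97 CPM in CONT2 and 9.48 CPM in CAC3 and at 0.178 to 0.994 CPM in the other 4 libraries. Those are the libraries in which the testis markers summed to 618 and 918 CPM. H19, the imprinted neighbor of Igf2, was at 1.78, 1.09 and 0.633 CPM in CONT and 0.287, 1.09 and 0.340 CPM in CAC, so that the groups overlapped, as they did for Igf2. The summed B and plasma cell markers were at 27.5 to 87.9 CPM in CONT and 6.72 to 17.1 CPM in CAC. The summed skeletal muscle markers were highest in CONT1 (42.3 CPM) and CAC1 (44.5 CPM). Most of these sums came from the actin gene Acta1 (39 CPM in CONT1 and 40.1 CPM in CAC1), and the other muscle markers were highest in CAC2 or CAC3.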
